A study of Mus musculus with 12 samples.

Results

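The medium that starts adipogenesis in 3T3-L1 cells holds dexamethasone, a synthetic glucocorticoid, and IBMX, which raises cAMP, and a set of 10 genes known to answer to these 2 agents was followed here. They were taken by symbol from the annotation of the array: *Fkbp5*, *Tsc22d3*, *Zbtb16*, *Dusp1*, *Sgk1*, *Crem*, *Pde3b*, *Pde4b*, *Pde4d* and *Mt2*. A gene was represented by a probe set assigned to its symbol alone, the brightest over all 12 arrays where there were several. Of the 10, 9 were measured in this way among 30176 genes, each by 1 probe set. The only probe set of *Pde4d* is shared with *Mir1904*, and *Pde4d* was not analysed here. The genes lie on chromosomes 17 (*Fkbp5* and *Dusp1*), X (*Tsc22d3*), 9 (*Zbtb16*), 10 (*Sgk1*), 18 (*Crem*), 7 (*Pde3b*), 4 (*Pde4b*), 13 (*Pde4d*) and 8 (*Mt2*).

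3T3-L1 is an established line of mouse preadipocytes, kept as fibroblast-like cells until hormones turn them into lipid-storing adipocytes. All cells received dexamethasone (1 µM), IBMX (500 µM) and insulin (1 µg/mL) from D0, and at D2 the medium was exchanged for one with insulin but without the other 2 agents. The D2 groups were transfected at D0 with 100 nM control siRNA (Ctrl-siRNA) or siRNA against the lincRNA *Paral1* (Paral1-siRNA) and collected at D2. The D9 groups were differentiated cells that were trypsinised, transfected in suspension at D7 with 100 nM of the same siRNAs and collected 2 days later. Each group held 3 arrays (Affymetrix Mouse Transcriptome Array 1.0), 1 from each of experiments 1, 2 and 3 at D2 and of experiments 4, 5 and 6 at D9, with both siRNAs in every experiment. The D2 cells had thus been in the inducing medium for 2 days and the D9 cells had been out of it. No uninduced cells are among the arrays, so the induction itself was not measured. Time, differentiation, withdrawal of the agents, replating and the set of experiments all change between D2 and D9 and cannot be told apart. The deposited labels name the reagent that the methods list as Paral1/2-siRNA, and the *Paral1* transcript was not analysed here.

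Dexamethasone binds the glucocorticoid receptor, a nuclear receptor held in the cytosol by Hsp90 chaperones, which then enters the nucleus and binds DNA at glucocorticoid response elements. IBMX blocks cyclic nucleotide phosphodiesterases, so that cAMP builds up, protein kinase A is activated and phosphorylates CREB, and CREB drives genes with a cAMP response element (CRE). Both routes feed back on themselves: *Fkbp5*, a target of the receptor, lowers the affinity of the receptor for its ligand, while cAMP induces phosphodiesterases and the repressor forms of *Crem*. In 3T3-L1 cells the 2 agents are best known for raising the early factors C/EBPβ and C/EBPδ, which precede PPARγ.

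Promoter windows of RefSeq (GRCm38.p6, 250 bases before to 50 after a gene start, on the strand of the gene) were searched for 7 of the 10 genes. No window of *Zbtb16*, *Crem* or *Pde3b* was searched, so whether theirs hold these letters was not tested. Both strands were searched for the letters TGACGTCA (CRE), GNACA followed after any 3 bases by TGTNC (glucocorticoid response element) and TGCGCNC or TGCACNC (metal response element). Among 32851 windows of the same length, 1.79% hold the CRE, 0.475% the glucocorticoid response element and 25.7% the metal response element. The windows of *Dusp1*, *Sgk1* and *Mt2* are shown because each holds the letters of the agent or ion named for it, in capitals.
*Dusp1*: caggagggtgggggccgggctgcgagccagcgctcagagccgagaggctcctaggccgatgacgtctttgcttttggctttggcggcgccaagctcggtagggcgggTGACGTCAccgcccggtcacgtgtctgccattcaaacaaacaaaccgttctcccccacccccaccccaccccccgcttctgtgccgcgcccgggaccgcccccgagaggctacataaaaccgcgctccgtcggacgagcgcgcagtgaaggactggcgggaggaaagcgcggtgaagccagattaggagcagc
*Sgk1*: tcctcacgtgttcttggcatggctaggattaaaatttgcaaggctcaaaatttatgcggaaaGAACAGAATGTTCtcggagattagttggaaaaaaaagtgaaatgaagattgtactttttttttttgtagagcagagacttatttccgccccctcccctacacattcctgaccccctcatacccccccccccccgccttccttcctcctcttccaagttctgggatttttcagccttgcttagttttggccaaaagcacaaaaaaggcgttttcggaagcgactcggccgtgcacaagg
*Mt2*: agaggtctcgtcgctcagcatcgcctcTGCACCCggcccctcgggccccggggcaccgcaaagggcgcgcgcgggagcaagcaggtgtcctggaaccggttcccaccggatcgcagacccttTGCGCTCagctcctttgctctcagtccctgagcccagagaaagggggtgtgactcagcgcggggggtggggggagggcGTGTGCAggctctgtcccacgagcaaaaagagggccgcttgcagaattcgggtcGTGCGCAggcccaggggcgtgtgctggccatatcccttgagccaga
The *Dusp1* window, chr17:26508423-26508722 on the minus strand, holds the CRE 143 bases before the start. The *Sgk1* window, chr10:21993640-21993939 on the plus strand, is 1 of 6 listed for this gene, and it is the one that holds the glucocorticoid response element, 188 bases before the start. The *Mt2* window, chr8:94172368-94172667 on the plus strand, holds 4 matches to the metal response element, which begin 223, 128 and 50 bases before the start and 4 bases after it. No other window among the 17 of these genes held the CRE or the glucocorticoid response element. The metal response element was found in 4 of the 17 windows, near the 25.7% of all windows that hold it. Besides the *Mt2* window these were windows of *Dusp1*, *Sgk1* and *Pde4b*. The core of the CRE (TGACG, which also lies inside the full one) was found in 4 of the 17 windows, near the 20.8% of all windows that hold it. A match shows only that the letters are present in the window.

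Over the whole series, an array's background probe sets had a median log2 value of 3.41 to 3.94 and a brightest value of 5.84 to 7.02, and 32.7% to 45.3% of the genes exceeded the brightest. A probe set is called above background on an array when it exceeds this brightest background value. The limit differed between arrays, so the number of arrays above it can differ between groups of like level. The summed level of 8 adipocyte markers (log2) ran from 12.27 to 16.82 in D2 Ctrl-siRNA cells, from 11.31 to 15.46 in D2 Paral1-siRNA cells and from 20.23 to 20.62 at D9, in accord with the label of differentiated cells. Among the D2 arrays those of experiment 1 had the lowest adipocyte sum with each siRNA. With Ctrl-siRNA it stood apart (12.27, against 16.82 and 16.29). With Paral1-siRNA it was 11.31, nearer to experiment 3 (12.75) than to experiment 2 (15.46). The summed level of 5 markers of dividing cells ran from 11.53 to 14.04 at D2 and from 8.24 to 9.86 at D9. For 5 markers of preadipocytes and fibroblasts it ran from 13.05 to 15.50 at D2 and from 13.72 to 14.68 at D9. These sums overlapped between the days, and 0 of the 5 genes passed the test of D9 against D2 with either siRNA. Of 4 endothelial markers none was above background on any array, and of 6 macrophage markers 0 to 3 were. The part of the adipocyte and dividing-cell shifts in the results below was not tested. In RNA from a whole culture, fewer cells that express a gene and less RNA per cell cannot be told apart.

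Most of the genes were lower at D9, after the agents had been withdrawn. In Ctrl-siRNA cells, 6 of the 9 fell from D2 to D9 (*Dusp1*, *Fkbp5*, *Mt2*, *Tsc22d3*, *Zbtb16* and *Pde4b*), 2 rose (*Pde3b* and *Crem*) and *Sgk1* did not pass the test, with an adjusted p under 0.05 in limma as the threshold. The same 6 fell and the same 2 rose in Paral1-siRNA cells, which are other arrays of the same experiments. These counts stand against a high background, since 41% of all genes passed in Ctrl-siRNA cells (26.1% lower and 14.9% higher) and 39.7% in Paral1-siRNA cells (25.2% and 14.5%), and 33.6% passed with 1 direction in both. The median difference of the 9 genes on the log2 scale was -2.16 in Ctrl-siRNA and -1.91 in Paral1-siRNA cells, against -0.19 and -0.16 over all genes. Relative to these overall medians, the 9 differences in Ctrl-siRNA cells ran from -4.01 for *Dusp1* to 2.48 for *Pde3b*. The D9 arrays of a gene lay wholly above or wholly below its D2 arrays for 8 of the 9 genes with Ctrl-siRNA and for 7 with Paral1-siRNA, and for 54.2% of all genes with either. No source used here states whether the arrays of the 2 days were normalized as 1 set. Without the arrays of experiment 1, the counts were 8 of 9 in Ctrl-siRNA and 7 of 9 in Paral1-siRNA cells, where *Crem* no longer passed.

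**Figure D1:**
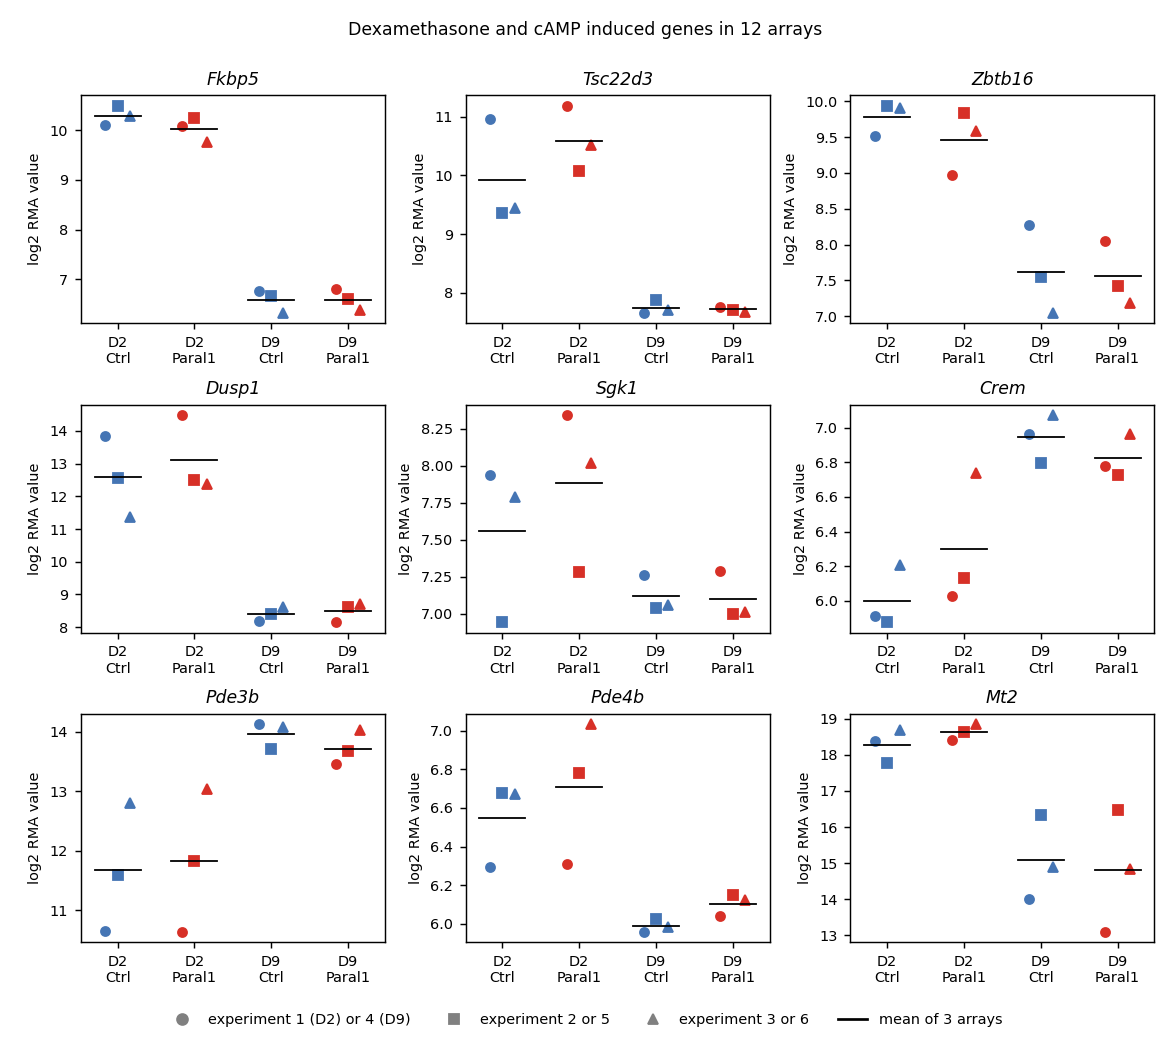
Log2 RMA value (y axis) of the 9 measured genes on each of the 12 arrays, by day and siRNA (x axis). Blue points are Ctrl-siRNA and red points Paral1-siRNA arrays, the point shape gives the experiment and the line the mean of 3 arrays. *Fkbp5*, *Tsc22d3*, *Zbtb16*, *Dusp1* and *Mt2* are lower on every D9 array than on any D2 array, while *Pde3b* is higher on every D9 array.

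*Fkbp5* encodes a co-chaperone of Hsp90 and is among the most widely used reporters of glucocorticoid receptor activity. Its log2 values were 10.09, 10.49 and 10.29 on the D2 Ctrl-siRNA arrays of experiments 1, 2 and 3, and 6.76, 6.66 and 6.33 on the D9 Ctrl-siRNA arrays of experiments 4, 5 and 6. With Paral1-siRNA they were 10.08, 10.25 and 9.76 at D2, and 6.80, 6.6 and 6.38 at D9. The 2 days are far apart and the arrays of each day lie close together, within 0.49 in any group. *Fkbp5* fell 13.1-fold in Ctrl-siRNA cells (log2 difference -3.71, SE 0.18, adjusted p = 2.51e-07 in limma) and 10.8-fold in Paral1-siRNA cells (-3.44, SE 0.18, adjusted p = 4.48e-07). At D9 it was above background on 3 of 3 Ctrl-siRNA arrays and on 2 of 3 Paral1-siRNA arrays. In experiment 6 it measured 6.33 and 6.38 with these siRNAs. The brightest background value there was 5.99 with Ctrl-siRNA and 7.02 with Paral1-siRNA.

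*Tsc22d3* encodes GILZ, a leucine zipper protein through which glucocorticoids restrain inflammatory transcription factors. At D2 its log2 values were 10.95, 9.36 and 9.45 with Ctrl-siRNA and 11.18, 10.08 and 10.52 with Paral1-siRNA. At D9 they were 7.66, 7.87 and 7.72 with Ctrl-siRNA and 7.77, 7.71 and 7.68 with Paral1-siRNA. Experiment 1 gave the highest value of both D2 groups, whereas the 6 arrays of D9 were almost level. *Tsc22d3* fell 4.50-fold in Ctrl-siRNA cells (-2.17, SE 0.39, adjusted p = 0.00147 in limma) and 7.32-fold in Paral1-siRNA cells (-2.87, SE 0.39, adjusted p = 2.73e-04). Without experiment 1 the difference was -1.66 in Ctrl-siRNA cells, with an adjusted p of 5.18e-05 in limma.

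*Zbtb16* encodes PLZF, a zinc finger repressor of transcription that glucocorticoids induce in many cell types. It measured 9.51, 9.94 and 9.91 (log2) in D2 Ctrl-siRNA cells and 8.27, 7.55 and 7.05 in D9 Ctrl-siRNA cells. The Paral1-siRNA arrays gave 8.97, 9.84 and 9.58 at D2 and 8.05, 7.43 and 7.19 at D9. The days did not overlap, and the D9 arrays ran in 1 order for both siRNAs, highest in experiment 4 and lowest in experiment 6. The fall was 4.47-fold with Ctrl-siRNA (-2.16, SE 0.33, adjusted p = 6.42e-04 in limma) and 3.75-fold with Paral1-siRNA (-1.91, SE 0.33, adjusted p = 0.00142).

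*Dusp1* encodes the phosphatase MKP-1, which switches off MAP kinases, and it is induced by both glucocorticoids and cAMP. It had the largest fall of the 9 genes and the widest spread at D2 with Ctrl-siRNA. In log2 units it measured 13.86, 12.56 and 11.37 in D2 Ctrl-siRNA cells and 14.48, 12.49 and 12.38 in D2 Paral1-siRNA cells. At D9 they were 8.18, 8.39 and 8.62 with Ctrl-siRNA and 8.15, 8.62 and 8.71 with Paral1-siRNA. The D2 arrays thus spanned 2.49 and 2.10 log2 units, against 0.43 and 0.56 at D9, and experiment 1 was highest for both siRNAs. The difference was 18.3-fold in Ctrl-siRNA cells (-4.20, SE 0.63, adjusted p = 5.49e-04 in limma) and 24.6-fold in Paral1-siRNA cells (-4.62, SE 0.63, adjusted p = 3.06e-04). Without the D2 arrays of experiment 1 the differences were -3.57 and -3.94, and without that of experiment 3 the Ctrl-siRNA difference was -4.81, with the call kept in limma. Among the 7 genes whose promoter windows were searched, this is the one with the full CRE shown above.

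*Sgk1*, a kinase of sodium transport and cell survival signalling that glucocorticoids induce in many tissues, was the exception. It measured 7.94, 6.94 and 7.79 (log2) in D2 Ctrl-siRNA cells and 7.26, 7.04 and 7.06 in D9 Ctrl-siRNA cells. With Paral1-siRNA they were 8.34, 7.28 and 8.02 at D2 and 7.29, 7.00 and 7.01 at D9. The D2 value of experiment 2 lay within or below the D9 range of its siRNA, so the days overlapped. The difference was -0.44 in Ctrl-siRNA cells (SE 0.29, adjusted p = 0.254 in limma, 95% interval -1.08 to 0.21) and -0.78 in Paral1-siRNA cells (SE 0.29, adjusted p = 0.0549, interval -1.43 to -0.13). The call rested on experiment 2. Without its arrays the differences were -0.74 and -1.08, with adjusted p = 0.0076 and 0.00134 in limma, and without its Ctrl-siRNA or its Paral1-siRNA array alone the adjusted p was 0.0488 and 0.0124. With the experiment as a random block the Paral1-siRNA difference had an adjusted p of 0.0237, and after a further quantile normalization it had one of 0.046. The glucocorticoid response element shown above lies in 1 of several *Sgk1* windows, and the probe set does not tell the starts apart.

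*Mt2* encodes a metallothionein, a small protein that binds zinc and copper, and its transcription answers to metals through the transcription factor MTF1 and to glucocorticoids. Its log2 levels were 18.37, 17.78 and 18.69 in D2 Ctrl-siRNA cells and 18.40, 18.62 and 18.84 in D2 Paral1-siRNA cells. At D9 they were 14.01, 16.35 and 14.89 with Ctrl-siRNA and 13.10, 16.46 and 14.83 with Paral1-siRNA. The days did not overlap, but the D9 arrays of 1 group spanned 2.33 and 3.36 log2 units, with experiment 5 highest and experiment 4 lowest for both siRNAs. *Mt2* fell 9.19-fold in Ctrl-siRNA cells (-3.20, SE 0.76, adjusted p = 0.00726 in limma) and 14.2-fold in Paral1-siRNA cells (-3.83, SE 0.76, adjusted p = 0.00287). The size of the fall depended on the D9 arrays. Without that of experiment 5 the difference was -3.83 with Ctrl-siRNA and -4.66 with Paral1-siRNA, and without that of experiment 4 it was -2.98 with Paral1-siRNA. A further quantile normalization gave -3.16 with Paral1-siRNA, and the call held in limma in each case.

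*Crem* encodes activators and repressors of CRE-driven transcription from different promoters, which the single probe set does not separate. Its log2 values were 5.91, 5.87 and 6.21 in D2 Ctrl-siRNA cells and 6.96, 6.80 and 7.07 in D9 Ctrl-siRNA cells. With Paral1-siRNA they were 6.02, 6.13 and 6.74 at D2 and 6.78, 6.73 and 6.96 at D9. None of the D2 Ctrl-siRNA arrays was above background, against 3 of 3 at D9, so the rise in Ctrl-siRNA cells is given as at least 1.23-fold (adjusted p = 0.00237 in limma). The bound sets the D9 mean of 6.95 against the lowest signal above background on each D2 array, where *Crem* itself averaged 6.00. In Paral1-siRNA cells, with 2 of 3 arrays above background on each day, *Crem* was 1.44-fold higher at D9 (0.52, SE 0.18, adjusted p = 0.0424), and the D2 value of experiment 3 lay within the D9 range. Of 12 omissions of arrays or experiments, this second call held in limma without the D2 array or both arrays of experiment 3 (adjusted p = 0.00435 and 0.0040), and the 10 others gave an adjusted p of 0.0665 to 0.156.

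*Pde3b* encodes the phosphodiesterase through which insulin lowers cAMP and lipolysis in adipocytes. It rose, against the direction of most of the set. Its log2 values were 10.64, 11.59 and 12.80 in D2 Ctrl-siRNA cells and 10.64, 11.82 and 13.03 in D2 Paral1-siRNA cells. At D9 they were 14.12, 13.71 and 14.08 with Ctrl-siRNA and 13.46, 13.67 and 14.02 with Paral1-siRNA. Experiment 1 was lowest and experiment 3 highest at D2 for both siRNAs, the reverse of *Dusp1*, and no D2 array reached the D9 arrays. The rise was 4.90-fold in Ctrl-siRNA cells (2.29, SE 0.60, adjusted p = 0.0113 in limma) and 3.70-fold in Paral1-siRNA cells (1.89, SE 0.60, adjusted p = 0.0282). Of 12 omissions of arrays or experiments, the only one to end the call in Ctrl-siRNA cells was that of both arrays of experiment 6 (adjusted p = 0.0519 in limma), and by the methods' t-test the adjusted p was 0.0714 and 0.127 with the 2 siRNAs. In Paral1-siRNA cells it held without both arrays of experiment 1 (0.0375), without the D2 array or both arrays of experiment 3 (0.00783 and 0.00231) and without the D9 array of experiment 4 (0.0483), and the 8 other omissions gave an adjusted p of 0.0609 to 0.117.

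*Pde4b* encodes a phosphodiesterase specific for cAMP that is itself induced by cAMP. It was dim on this array. Its log2 values were 6.30, 6.68 and 6.67 in D2 Ctrl-siRNA cells, where 1 of 3 arrays was above background, and 5.96, 6.03 and 5.98 in D9 Ctrl-siRNA cells, where none was. With Paral1-siRNA they were 6.31, 6.78 and 7.03 at D2 (2 of 3 above background) and 6.04, 6.15 and 6.12 at D9 (1 of 3). Each D9 value was below each D2 value of the same siRNA. The fall was at least 1.29-fold in Ctrl-siRNA cells (means 6.55 and 5.99, adjusted p = 0.0251 in limma) and 1.52-fold in Paral1-siRNA cells (-0.60, SE 0.17, adjusted p = 0.0183). After subtraction of each array's median the adjusted p was 0.142 and 0.112. Of 12 omissions of arrays, the call in Ctrl-siRNA cells held in limma without the D2 array or both arrays of experiment 1 (adjusted p = 0.0149 and 7.9e-04), and the 10 others gave 0.0513 to 0.0935. In Paral1-siRNA cells it held without the D2 array or both arrays of experiment 1 (0.00212 and 3.78e-04) and without the D9 array of experiment 5 or 6 (0.0408 and 0.0471), and the 8 others gave 0.0521 to 0.0795.

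**Figure D2:**
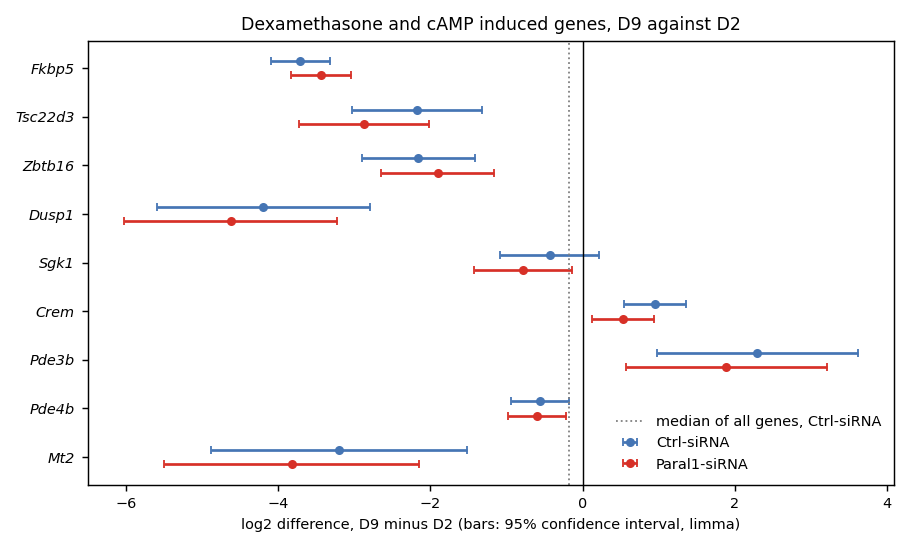
Difference between D9 and D2 on the log2 scale (x axis) of the 9 measured genes (y axis) in Ctrl-siRNA cells (blue) and Paral1-siRNA cells (red), with 95% confidence intervals from limma. The dotted line is the median of all genes in Ctrl-siRNA cells (-0.19), and 7 of the 9 genes lie to its left with both siRNAs.

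The genes around this set were described by lists of the receptor, the kinase cascade and further known targets, with D9 set against D2 in Ctrl-siRNA cells. Of 15 measured genes of the glucocorticoid receptor pathway, 5 rose and 4 fell, with a median difference of 0.04. *Nr3c1*, the receptor itself, rose 3.95-fold while most of its known targets in the set fell, from 9.08, 10.01 and 9.67 at D2 to 11.55, 11.50 and 11.67 at D9 (adjusted p = 2.47e-04 in limma). *Ncoa1*, a coactivator of nuclear receptors, was 1.71 higher on the log2 scale, and *Smarca4*, the ATPase of a chromatin remodelling complex, decreased by 1.37.

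Of 27 other genes induced by glucocorticoids in some tissue, 6 rose and 11 fell (median -0.57). Among those that fell, *Cdkn1c*, *Il1r2* and *Hif3a* were below background on every array, so no fall in their expression is shown. *Fbxo32*, counted as a rise, has no fold. Its D9 mean (6.50) did not exceed the lowest signal above background on the D2 arrays (6.65 on average). *Lcn2*, a secreted protein that binds siderophores, was at least 35.5-fold lower at D9, where none of the Ctrl-siRNA arrays was above background (adjusted p = 1.5e-06 in limma). *Per1*, a clock gene with both glucocorticoid and CRE control, decreased by 2.66 on the log2 scale, and it too was highest at D2 in experiment 1 (11.04, against 9.33 and 9.45 in Ctrl-siRNA cells). *Sult1a1*, a sulfotransferase, went the other way and was 4.22 higher at D9 on that scale.

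Of 24 other genes induced through cAMP and CREB, 6 rose and 8 fell (median -0.28). These counts include *Nr4a3*, which fell, and *Il6*, which rose, although neither was above background on any array. *Atf3*, counted as a rise, has no fold. Its D9 mean (6.57) did not exceed the lowest signal above background on the D2 arrays (6.65 on average). *Pck1*, the enzyme of glyceroneogenesis and a classic CREB target, rose at least 91.5-fold, with log2 values of 4.50 to 4.86 at D2 and of 12.25 to 13.86 at D9 (adjusted p = 2.44e-06 in limma). *Ppargc1a*, a coactivator, was at least 2.91-fold higher at D9. Both were below background on every D2 Ctrl-siRNA array. *Per1* and *Cebpb*, which fell, belong to this list and to the glucocorticoid list.

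Of the 15 phosphodiesterase genes besides *Pde3b* and *Pde4b*, 3 rose and 3 fell (median -0.04). The 3 that fell (*Pde4c*, *Pde11a* and *Pde8b*) were below background on every array, so no fall in their expression is shown. *Pde1a*, activated by calcium and calmodulin, was 1.94 higher at D9 on the log2 scale (adjusted p = 0.00175 in limma). *Pde4a*, a relative of *Pde4b* that is also specific for cAMP, was at least 1.28-fold higher at D9 (0.00306), so it moved opposite to *Pde4b*. *Pde2a* passed the test as well (0.00154), but its D2 arrays were below background and its D9 mean did not exceed the limit of detection of the D2 arrays, so it has no fold. *Pde3a*, the closest relative of *Pde3b*, was below background on all arrays.

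Of 26 genes of adenylyl cyclases, protein kinase A and its partners, 6 rose and 4 fell (median -0.14). Among those that fell, *Adcy1*, *Pkib* and *Adcy4* were below background on every array. Of those that rose, *Pkia* and *Adcy9* have no fold. Their D9 means (5.91 and 6.43) did not exceed the limit of detection of the D2 arrays (6.65 on average). *Prkar2b*, the regulatory subunit of protein kinase A that prevails in adipocytes, was 4.32 higher at D9 on the log2 scale (adjusted p = 0.00173 in limma). *Prkaca*, a catalytic subunit, was 2.19 higher (0.00117), and *Akap12*, an anchoring protein, was at least 1.13-fold higher. *Prkar2b* resembled *Pde3b* in being lowest at D2 in experiment 1 (8.21, against 11.32 and 10.79 in Ctrl-siRNA cells).

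Among 20 relatives of the 9 genes, 4 rose and 6 fell (median -0.16). Those that fell include *Mt4* and *Dusp2*, which were below background on every array. *Sgk3*, counted as a rise, has no fold. Its D9 mean (6.62) did not exceed the limit of detection of the D2 arrays (6.65 on average). *Mt1*, the neighbour and close homologue of *Mt2*, fell 5.60-fold, from 18.74, 18.16 and 18.31 at D2 to 15.59, 16.42 and 15.75 at D9 in Ctrl-siRNA cells, and like *Mt2* it was highest at D9 in experiment 5. *Dusp4*, another MAP kinase phosphatase, was at least 1.19-fold higher at D9, opposite to *Dusp1*. *Fkbp1a* encodes the small immunophilin FKBP12 and decreased by 1.33 on the log2 scale. In the list of 8 metal response genes, of which *Mt1* is one, 1 rose and 3 fell (median -0.23), with *Mt4* again among those that fell. The zinc importer *Slc39a14* decreased by 2.37 on the log2 scale, and *Slc39a10*, another zinc importer, was 2.63-fold higher. These shares of called genes are to be read against 41% of all genes in this comparison. For Paral1-siRNA cells, some of the counts that follow likewise include genes below background on every array. In Paral1-siRNA cells the counts of genes that rose and fell were 4 and 3 for the receptor pathway, 6 and 12 for other glucocorticoid-induced genes, 6 and 11 for other cAMP-induced genes, 4 and 1 for phosphodiesterases, 6 and 4 for the kinase cascade, 4 and 7 for the relatives and 1 and 4 for metal response.

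**Figure D3:**
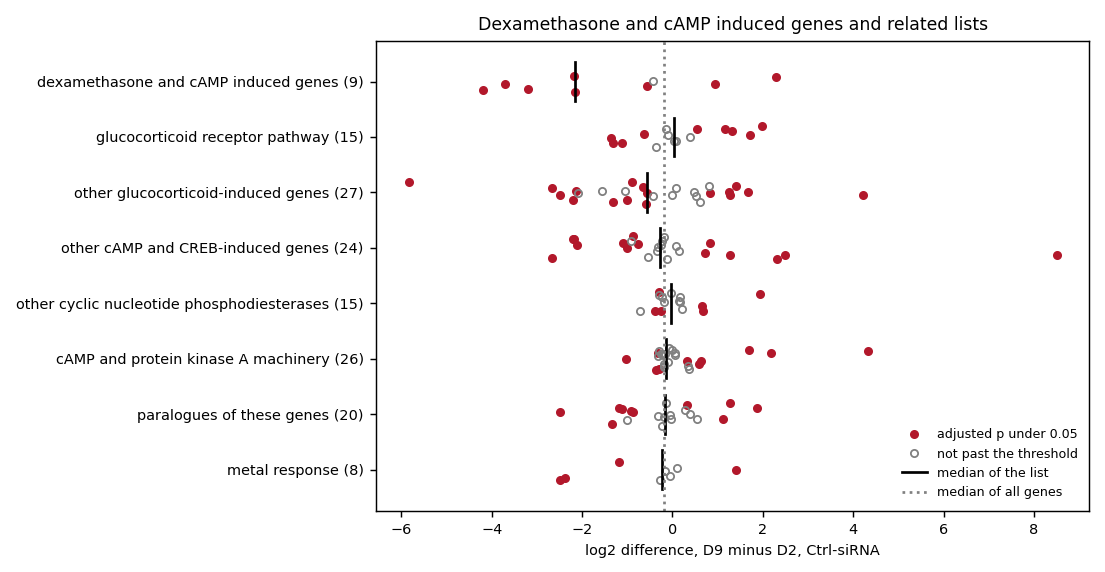
Difference between D9 and D2 in Ctrl-siRNA cells on the log2 scale (x axis) for each measured gene of the set and of 7 related lists (y axis, number of genes in brackets). Red points passed the test, open points did not, black bars are list medians and the dotted line is the median of all genes. Some genes that passed were below background on every array. The set has the lowest median, -2.16, beside list medians of -0.57 to 0.04.

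With Paral1-siRNA, none of the 9 genes passed the test at either day, and neither did any other gene of the array (0% in limma, with 458 genes, or 1.52%, at an unadjusted p under 0.05 at D2 and 775, or 2.57%, at D9, none of them among the 9). The methods' t-test gave 685 and 985 genes at an unadjusted p under 0.05, and 0 after adjustment. Of the 9, *Pde4b* at D9 was among them (unadjusted p = 0.0411, unpaired two-sided), and none at D2 was. At D2, 5 of the 9 were higher with Paral1-siRNA in all 3 experiments (*Tsc22d3*, *Sgk1*, *Crem*, *Pde4b* and *Mt2*), where 18.8% of all genes were, and 2 were lower in all 3 (*Fkbp5* and *Zbtb16*), where 14.6% were. The Paral1-siRNA and Ctrl-siRNA arrays overlapped for each of the 9 genes at D2, and were separate for 5.18% of all genes.

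*Tsc22d3* had the largest difference at D2. It was higher with Paral1-siRNA by 0.23, 0.71 and 1.07 on the log2 scale in experiments 1, 2 and 3. The mean difference of 0.67 had an SE of 0.50 (95% interval -0.53 to 1.87, adjusted p = 1 in limma), and it was the only one of the 9 at 1.5-fold or more, as 2.38% of all genes were. The spread between experiments, 1.59 log2 units among the Ctrl-siRNA arrays, exceeded this mean difference. That spread enters the SE, because the main fit does not pair arrays. The same holds for the SEs of the other siRNA differences. *Dusp1* gave 0.63, -0.08 and 1.01, so that experiment 2 went against the others, with a mean of 0.52 (SE 0.80).

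*Fkbp5* was lower with Paral1-siRNA by 0.01, 0.24 and 0.53 at D2 (mean -0.26, SE 0.18). *Zbtb16* was lower by 0.54, 0.10 and 0.32 (mean -0.32, SE 0.25). Neither passed the test. *Sgk1* differed by 0.40, 0.34 and 0.23, the most even of the set (mean 0.33). Its SE of 0.37 comes from the unpaired fit. That SE takes in the spread between experiments (1.00 and 1.06 log2 units) and does not measure the spread of these differences.

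On the cAMP side, *Crem* differed at D2 by 0.11, 0.26 and 0.53 (no array of the Ctrl-siRNA group was above background, so it has no fold). *Pde3b* differed by -0.01, 0.24 and 0.24, and *Pde4b* by 0.01, 0.10 and 0.36. *Mt2* differed by 0.03, 0.84 and 0.15, so that its mean of 0.34 (SE 0.26) rested largely on experiment 2, the lowest Ctrl-siRNA array. With the experiment as a block in limma, 4 of the 9 had an unadjusted p under 0.05 at D2, where 11.6% of all genes did, and their adjusted p was 0.356 (*Tsc22d3*), 0.361 (*Sgk1*), 0.405 (*Zbtb16*) and 0.419 (*Crem*).

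At D9 the differences were small for most of the set. *Fkbp5*, *Tsc22d3*, *Dusp1* and *Sgk1* had means between -0.03 and 0.10, with no direction shared by the 3 experiments, and *Zbtb16* differed by -0.22, -0.13 and 0.14 (mean -0.07). The 95% interval of *Fkbp5* was -0.38 to 0.40 and that of *Tsc22d3* was -0.26 to 0.20. *Mt2* had the widest, -2.55 to 1.98. This fit does not pair arrays, and *Mt2* spanned 2.33 and 3.36 log2 units between experiments with Ctrl-siRNA and Paral1-siRNA. Within experiments 4, 5 and 6 it differed by -0.91, 0.11 and -0.06. *Pde4b* was the only one of the 9 whose D9 groups did not overlap, higher with Paral1-siRNA by 0.08, 0.12 and 0.14, where 4.66% of all genes were separated in this direction (adjusted p = 1 in limma), but its Ctrl-siRNA arrays were below background. *Crem* (-0.18, -0.07 and -0.11) and *Pde3b* (-0.66, -0.04 and -0.05) were lower in all 3 experiments, as 13% of all genes were, and *Pde4b* was the only one higher in all 3, as 16.5% were. With the experiment as a block none of the 9 had an unadjusted p under 0.05 at D9, where 6.87% of all genes did.

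**Figure D4:**
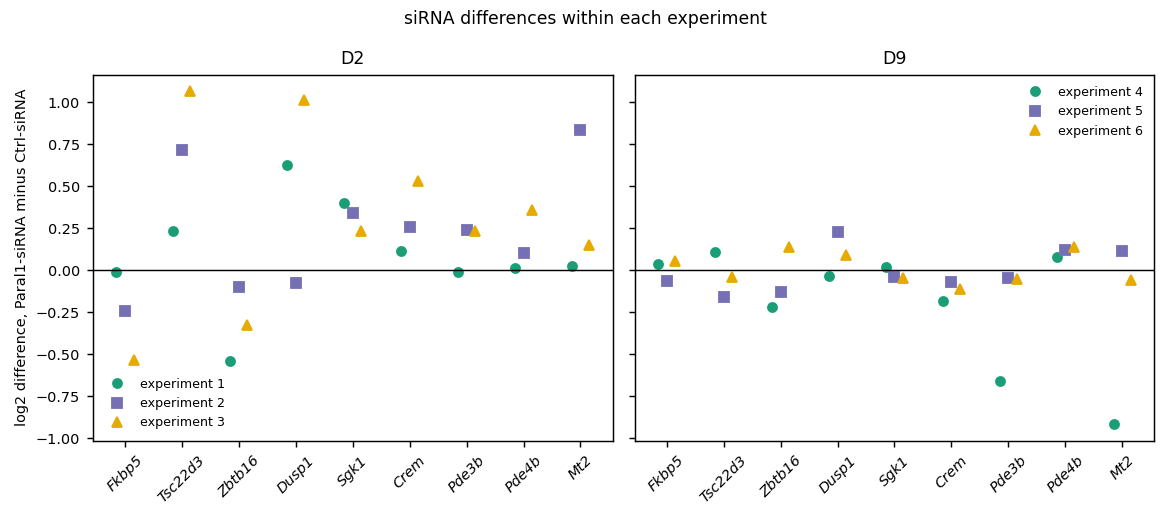
Difference between Paral1-siRNA and Ctrl-siRNA on the log2 scale (y axis) for each of the 9 measured genes (x axis) within each experiment, at D2 (left) and D9 (right). Points are experiments, and at D2 they lie above 0 in all 3 for *Tsc22d3*, *Sgk1*, *Crem*, *Pde4b* and *Mt2*.

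Whether the siRNA difference itself changed between the days was tested as an interaction, and none of the 9 genes passed (0% of all genes did, with 1.08% at an unadjusted p under 0.05). *Tsc22d3* had the largest change, -0.70 (SE 0.55, adjusted p = 1 in limma). With the experiment as a block, *Tsc22d3*, *Sgk1* and *Crem* had an unadjusted p under 0.05, where 7.29% of all genes did, and their adjusted p was 0.592, 0.615 and 0.617.

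The differences between experiments were often larger than those between siRNAs. The 3 experiments fell in 1 order for both siRNAs in 5 of the 9 genes at D2 (*Dusp1*, *Pde3b*, *Sgk1*, *Tsc22d3* and *Zbtb16*) against 41.4% of all genes, and in 7 of the 9 at D9 (all but *Tsc22d3* and *Pde3b*) against 32.2% of all genes. *Pde3b* spanned 2.15 and 2.40 log2 units over the D2 experiments with Ctrl-siRNA and Paral1-siRNA. Its siRNA difference in any D2 experiment was at most 0.24. The lowest *Pde3b* and the highest *Dusp1* and *Tsc22d3* at D2 were in experiment 1, which also had the lowest sums of adipocyte markers (12.27 and 11.31) and of dividing-cell markers (11.53 and 11.53). At D9, where adipocyte sums were nearly level, *Mt2* and *Zbtb16* still differed between experiments (by up to 3.36 and 1.22 log2 units), while the 7 other genes spanned at most 0.56.

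The genes whose pattern was most like that of each member over the 12 arrays were taken by Pearson's r among 12080 genes above background on 6 or more arrays (12081 for *Pde4b*). Such an r mostly follows the step from D2 to D9, so the r after removal of the group means is given beside it. Both come from the arrays on which the genes were picked, so the second is a description and not a separate test. *Fkbp5* was nearest to *Cdca7* (0.997, within groups 0.812) and *Fbl* (0.996 and 0.715). The nearest genes of *Tsc22d3* were *Cdr2l* (0.994 and 0.943) and *Plp2* (0.994 and 0.953), and those of *Dusp1* were *Lpcat4* (0.995 and 0.951) and *Wnt4* (0.993 and 0.954). For *Mt2* they were the predicted genes *Gm17068* (0.990 and 0.961) and *Gm12117* (0.986 and 0.944), and for *Pde3b* they were *Lcorl* (0.984 and 0.952) and *Arntl2* (0.984 and 0.962). The other 4 were nearest to *Phf12* and *Erdr1* (*Zbtb16*), *Gpr153* and *Rab3il1* (*Sgk1*), *Rab18* and *Cdo1* (*Crem*), and *Nap1l1* and *2610024D14Rik* (*Pde4b*), with r of 0.949 to 0.978 and within groups of 0.870 to 0.934.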

How the data were processed

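RNA from 3T3-L1 cells was hybridised to 12 Affymetrix Mouse Transcriptome 1.0 arrays, 3 in each of 4 groups. Before deposition the authors corrected the scans for GC content, transformed them in signal space, and summarised them by RMA to log2 values, 1 per probe set. Expression Console 1.4.1 is named for this by the deposited labels, whereas the methods give Partek Genomics Suite 6.6 for the RMA step. The log2 values were used as deposited, so the choices made in that normalization pass into every difference given here.

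The array annotation gives 1 symbol to 30638 of the 65770 transcript clusters, which stand for 30176 genes and were used, and several symbols to 2176, which were left out. Each siRNA comparison was fitted with the 6 arrays of its day, and D9 against D2 and the interaction with all 12 arrays, by lmFit and eBayes (limma 3.58.1 in R 4.3.3) with Benjamini-Hochberg adjustment over all genes. No exact permutation p is given, since 3 arrays against 3 cannot go below 0.1 (two-sided). A group with no array above background has only a bound, and its fold is given as "at least", against the lowest signal above background on each of its arrays (or its own, if higher). The fits were tested on simulated data with independent arrays. The real arrays of 1 experiment vary together, so that test does not cover the pairing. Alternatives were the experiment as a block, other sets of arrays, quantile normalization again, subtraction of array medians, a filter on dim probe sets, the mean of a gene's probe sets, the methods' t-test (unpaired), and omission of arrays or experiments.

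Experiments are numbered in the labels. Arrays with the same number deviated from their group means together (r = 0.71 to 0.86, against -0.79 to 0.41 for different numbers), so the numbers pair the arrays. The block used this pairing, with a consensus correlation of 0.59 where it was random. Apart from these numbers, nothing states whether the arrays of a group were separate cultures, so the spread behind each p-value may be partly technical. The number of arrays limits the precision. Named were all 10 genes of the set, the 2 genes nearest to each, and the 3 largest called changes of each list. *Cebpb*, *Pde3a* and the list genes named for a signal near or below background were named after their values were seen. The genes of the set and the lists were chosen with earlier results of these data known.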

Additional observations from a re-analysis of the deposited data

Results flagged for a closer look

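*Crem* was higher with Paral1-siRNA in all 3 experiments at D2 and lower in all 3 at D9, which drew attention to it. The change of the siRNA difference from D2 to D9 was -0.42 on the log2 scale (SE 0.26, unadjusted p = 0.131 and adjusted p = 1 in limma). With the experiment as a block the unadjusted p was 0.0173 and the adjusted p 0.617. *Crem* was above background on none of the 3 Ctrl-siRNA arrays at D2 and on 2 of 3 with Paral1-siRNA. The brightest background value was 6.63, 6.84 and 6.46 on these Ctrl-siRNA arrays. With Paral1-siRNA it was 5.84, 6.97 and 5.95, so the 2 counts rest on unlike limits.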

How the results depend on the processing

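The 9 differences between D9 and D2 kept their direction with both siRNAs under all 19 alternatives. *Fkbp5*, *Dusp1* and *Zbtb16* passed in each of them with both siRNAs, *Mt2* in 19 and 18 and *Tsc22d3* in 18 and 19 (Ctrl-siRNA and Paral1-siRNA), the exceptions being the methods' t-test (adjusted p = 0.0532 for *Tsc22d3* with Ctrl-siRNA and 0.0591 for *Mt2* with Paral1-siRNA). *Pde3b* passed in 17 and 10, *Crem* in 19 and 5, *Pde4b* in 7 and 8, and *Sgk1* in 2 and 4. The calls of the set ran from 6 to 8 of 9 in Ctrl-siRNA cells and from 4 to 9 in Paral1-siRNA cells. Of all genes, 12380 and 11993 passed. With the filter on dim probe sets these were 6063 and 6217 among fewer genes tested, and with the methods' t-test 7527 and 7956 (the cause was not tested). Omission of arrays gave 8609 to 12455 and 8033 to 12789. The share of calls that were higher at D9 moved from 36.3% to 45.8% (quantile normalization) and 46.5% (array medians) with Ctrl-siRNA, and from 36.5% to 45.5% and 47.7% with Paral1-siRNA.

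The siRNA comparisons had 0 calls under each alternative, omissions included (0 to 0), with the methods' t-test giving 685 genes at D2 and 985 at D9 at an unadjusted p under 0.05. With the replicate block the lowest adjusted p of any gene was 0.340 at D2 and 0.600 at D9, and the block changed no call other than *Sgk1* at D9 against D2. The interaction had 0 to 1 calls over omissions, the 1 without the Ctrl-siRNA array of experiment 4. At D9 the siRNA difference changed sign to 0.0302 for *Tsc22d3* and 0.012 for *Sgk1* after quantile normalization, and to -0.0346 for *Fkbp5* after subtraction of array medians. Over omissions the siRNA difference at D2 ran from -0.16 to 1.15 for *Dusp1*, -0.45 to 0.75 for *Pde3b* and -0.0048 to 0.36 for *Pde4b*. At D9 it ran from -0.12 to 0.12 for *Fkbp5*, -0.0987 to 0.0342 for *Tsc22d3*, -0.36 to 0.26 for *Zbtb16*, -0.0118 to 0.27 for *Dusp1*, -0.11 to 0.0517 for *Sgk1* and -1.12 to 0.56 for *Mt2*. The interaction ran from -0.0345 to 0.58 for *Zbtb16*, -1.06 to 0.26 for *Dusp1*, -1.005 to 0.19 for *Pde3b*, -0.24 to 0.12 for *Pde4b* and -1.46 to 0.22 for *Mt2*. *Crem* and *Pde4b* lie near background, which limits what their differences show.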
